A study of Homo sapiens with 14 samples.

Results

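FLI1 sites at the starts of long noncoding RNA (lncRNA) genes were described in TC-32, an established Ewing sarcoma cell line. A site was a region of the FLI1 peak list of set A replicate 1, on the autosomes and X, that overlapped a region in each of the other 3 FLI1 lists. Its summit had to lie within 1 kb of a GENCODE lncRNA gene start and over 5 kb from any protein-coding transcript start. Of 35210 regions in that list, 16804 were in all 4 lists and 473 met the rule. The 473 sites were nearest to 461 different lncRNA genes. Of the other shared regions, 6655 had a summit within 1 kb of a protein-coding start (protein-coding promoter sites), 1398 lay 1 to 5 kb from one, and 8278 were other distal sites, over 5 kb from protein-coding starts and over 1 kb from lncRNA gene starts.

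The series holds 14 CUT&RUN libraries from untreated TC-32 cells labelled WT, all of 1 cell line. In CUT&RUN a nuclease tethered to the antibody cuts out nearby DNA for sequencing. In set A, FLI1, H3K27ac and IgG were each profiled with 2 replicates, and in set B FLI1, H3K9me3, H3K27me3 and IgG, also with 2 each. What sets A and B stand for is not stated in the labels, and nothing there says whether replicates came from separate cultures. The spread between replicates may therefore be technical.

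EWSR1::FLI1, the fusion oncoprotein of most Ewing sarcomas, joins the activation domain of EWSR1 to the ETS DNA-binding domain of FLI1. ETS factors recognise a GGAA core, often within CCGGAA at promoters, and the fusion also binds runs of consecutive GGAA units (microsatellites), where it can create enhancers. The antibody was to FLI1, so the fusion and any native FLI1 cannot be told apart. lncRNAs are transcripts without a long reading frame, some of which act in chromatin, in nuclear bodies or as hosts of microRNAs and small nucleolar RNAs. H3K27ac marks active promoters and enhancers, while H3K9me3 and H3K27me3 mark repressed chromatin.

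The sequences below are the plus strand of hg38, 5′ to 3′. They show the kinds of sequence met at the sites. The first 3, chosen from the 5 sites with the longest GGAA runs within 250 bp of the summit, carry the run in capitals, written TTCC where the GGAA lies on the minus strand.
ENSG00000226208, chr1:70720487-70720636, 17 units: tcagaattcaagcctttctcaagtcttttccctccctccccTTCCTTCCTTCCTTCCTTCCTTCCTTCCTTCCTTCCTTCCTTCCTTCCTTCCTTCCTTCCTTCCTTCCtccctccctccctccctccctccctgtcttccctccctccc
LINC01627, chr9:37384092-37384241, 15 units: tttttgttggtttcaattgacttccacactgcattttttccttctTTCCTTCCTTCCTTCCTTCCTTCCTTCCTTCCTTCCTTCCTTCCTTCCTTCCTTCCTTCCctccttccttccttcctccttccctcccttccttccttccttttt
ENSG00000235533, chr9:14025896-14026045, 14 units: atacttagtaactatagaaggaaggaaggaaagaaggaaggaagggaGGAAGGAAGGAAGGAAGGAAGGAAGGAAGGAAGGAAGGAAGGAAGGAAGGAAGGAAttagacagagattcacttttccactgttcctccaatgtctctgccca

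The next 3 come from CpG-rich starts. Capitals mark CCGGAA or its reverse complement TTCCGG, and the MIRLET7A1HG window, centred on the summit, holds neither. ZNF790-AS1 was chosen after its values were seen, as a site with several such motifs.
MIATNB, chr22:26672813-26672932: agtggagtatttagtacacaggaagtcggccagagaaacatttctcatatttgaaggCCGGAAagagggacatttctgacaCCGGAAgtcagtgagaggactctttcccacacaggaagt
ZNF790-AS1, chr19:36797455-36797574: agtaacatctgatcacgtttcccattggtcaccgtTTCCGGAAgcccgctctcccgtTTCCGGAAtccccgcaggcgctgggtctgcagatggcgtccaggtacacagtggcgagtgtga
MIRLET7A1HG, chr9:94166920-94167069: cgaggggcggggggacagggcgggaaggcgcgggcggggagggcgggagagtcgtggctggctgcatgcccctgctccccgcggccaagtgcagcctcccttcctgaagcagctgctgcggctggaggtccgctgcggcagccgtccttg

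Values are the authors' fold of a region over the matching IgG library, and the region's percentile of fold within its list. Since the FLI1 lists chose the sites, their FLI1 folds are described without a test. The FLI1 lists held 29339 to 40590 regions and the mark lists 10219 to 36687, with no read totals, so depth is unknown. The highest fold of each FLI1 list was 347 (set A replicate 1), 401.9 (set A replicate 2), 141.4 (set B replicate 1) or 99.96 (set B replicate 2). A gap in fold between the sets therefore need not be as large a gap in rank. A site outside a mark's list was not detected there, which does not show that the mark is absent.

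lncRNA starts over 5 kb from a protein-coding start seldom carried a FLI1 site. Of 13459 such starts, 534 (3.97%) had one within 1 kb, some sites lying near several starts (76 of the 473 sites had 2 or more). Small nucleolar RNA host genes (SNHG genes, whose introns release these RNAs) had a site at 7 of 18 starts (38.9%), and microRNA host genes at 6 of 69 (8.70%). Genes with a LINC symbol had one at 105 of 2121 starts (4.95%), antisense genes at 34 of 808 (4.21%), and genes without a symbol at 324 of 9744 (3.33%). For genes with another symbol the count was 57 of 577 (9.88%), above the share of microRNA host genes. Intronic or overlapping genes had 1 of 116 (0.862%). Named after the nearest start, the 473 sites comprised 287 at genes without a symbol, 93 LINC, 30 antisense, 8 microRNA host and 6 SNHG sites, 48 at genes with another symbol and 1 at an intronic gene. The largest number lay on chromosome 1 (53), then chromosome 2 (37) and chromosome 17 (33).

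Summits lay on both sides of the start, with a dip just before it. The median position was 55 bp downstream of the start, 214 summits (45.2%) lay upstream, and 254 (53.7%) lay within 250 bp. From 300 to 100 bp upstream, the summits numbered 10.7% and 10.3% of all per 100 bp in set A (replicates 1 and 2), and set B had 10.7% and 10.3%. In the last 100 bp before the start the shares were 4.23%, 4.15%, 7.51% and 6.92%. In the 100 bp after it they were 10.8%, 15.9%, 16.6% and 18.5%. Every library was lower in the middle window than in either neighbour. The rule limited the summit of set A replicate 1 to 1 kb, but not the shape within that range. For the other lists the summit of the overlapping region was taken, and those beyond 1 kb were left out. This left 458 summits in set A replicate 2 and 453 and 448 in set B. In these lists 8, 11 and 11 regions covered 2 or more sites, so their summits could be counted more than once. Protein-coding promoter sites had the same shape in the 4 lists, with 7.29%, 7.22%, 10.1% and 10.4% in the last 100 bp against 20.8% to 23.9% in the 100 bp after the start.

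**Figure D1:**
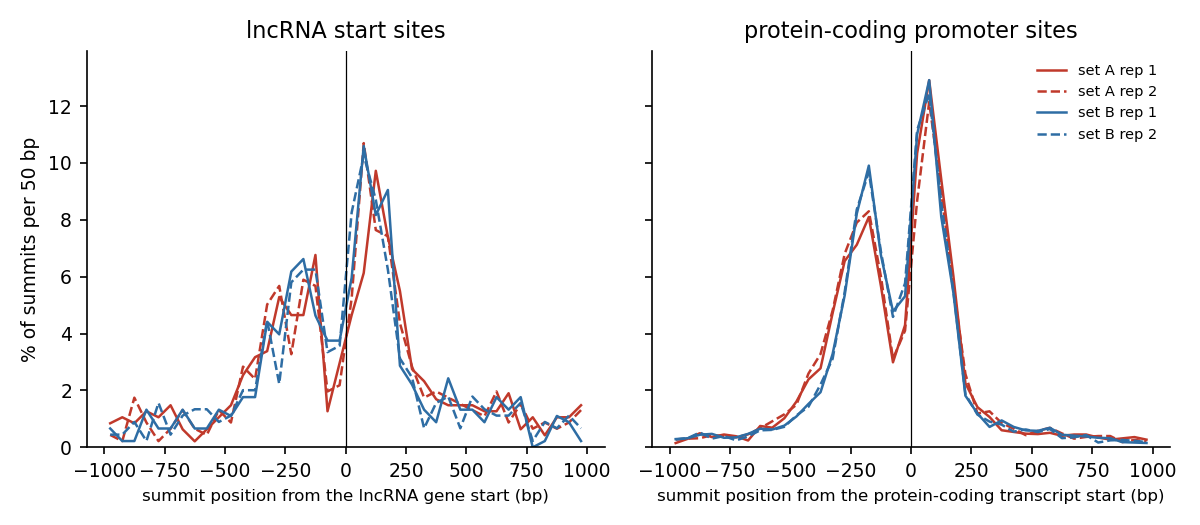
Position of FLI1 summits from the nearest lncRNA gene start (left) or protein-coding transcript start (right), in bp with negative values upstream, as the percent of each list's summits per 50 bp. Lines are the 4 FLI1 libraries, and in each the summits form a peak on either side of the start with a dip just upstream of it.

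In base composition the sites stood between the distal sites and the promoters. CpG-rich sequence (at least 50% G or C and a CpG observed-to-expected ratio of at least 0.6 in the 300 bases around the summit) was present at 187 of 473 sites, or 39.5% (exact Clopper-Pearson 95% interval 35.1 to 44.1). It was present at 3.95% of other distal sites (3.54 to 4.39) and 74.3% of protein-coding promoter sites (73.2 to 75.3). The median G+C content was 56.0%, against 44.3% and 63.0%. CCGGAA, searched on both strands in the same 300 bases, was found at 90 of 473 sites, against 6.72% (556) of other distal sites and 29.3% (1951) of promoter sites. In RefSeq's 300-base promoter windows (GRCh38.p14), 6057 of 35116 (17.2%) held it. These intervals cover counting error only.

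GGAA microsatellites were few. A run of at least 4 consecutive GGAA or TTCC units within 250 bp of the summit was present at 13 sites, or 2.75% (1.47 to 4.65). The share was 10.5% of other distal sites (9.87 to 11.2) and 0.270% of promoter sites (0.160 to 0.427). Runs of 8 or more units were at 10 of the 13. Counting instead runs anywhere in the region gave 15 sites (3.17%, against 12.3% of other distal sites). That count adds ENSG00000260580, ENSG00000288977 and LINC02652, whose runs lie further from the summit, and leaves out ENSG00000263105, whose 10-unit run lies outside its region. The longest run, with 25 units, lay 304 bp from the summit at ENSG00000260580. Among the 13, the run's nearer edge lay 40 to 248 bp from the summit. Of the 473 sites, 434 (91.8%) had 31 summit bases that occur once in hg38, against 94.9% of other distal and 98.2% of promoter sites. Of the 13 repeat sites, 11 were unique in this way. The summit bases occur 4 times for ENSG00000272755 (14 units) and 17 times for DLGAP1-AS5 (7 units), so the positions of these 2 are uncertain.

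H3K27ac lay at a minority of the sites. It overlapped 83 of 473 sites (17.5%) in replicate 1 and 111 (23.5%) in replicate 2, and 59 (12.5%) in both. Over all 16804 shared FLI1 sites, which set the background, the shares were 16.6%, 23.0% and 12.0%, so the count at lncRNA starts lay near the background. Among other distal sites the shares were 12.4% and 18.6%. The lncRNA-start sites thus exceeded them by 5.15 and 4.88 percentage points, a mean of 5.01 ± 0.196 (SD, n = 2 H3K27ac libraries). Protein-coding promoter sites had 21.6% and 28.0%, and the lncRNA-start sites differed from them by -4.06 and -4.51 points (mean -4.29 ± 0.319, n = 2). Both differences exceeded their own SD, which leaves out the sampling error of sites because the same sites were used in both libraries. The exact sign-flip permutation test, two-sided, gave p = 0.5 for each (n = 2), the floor of this design. Adjusted by Benjamini-Hochberg over 4 differences, p was 0.5 as well (exact permutation, n = 2).

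FLI1 in set A and H3K27ac share their IgG controls. With sites taken from the set B lists alone, which do not share them, the differences were 3.66 and -4.32 points. Wider FLI1 regions can meet a mark more often: the median width was 781 bp at lncRNA starts, 931 bp at other distal sites and 727 bp at promoters. Counted as summits inside H3K27ac instead, the differences were 4.38 and -1.57 points, and with a mark within 1 kb of the region the difference from promoters was -10.9 points. With FLI1 regions that overlap each other by at least 50%, which left 196 sites, the difference from other distal sites was 9.73 points.

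**Figure D2:**
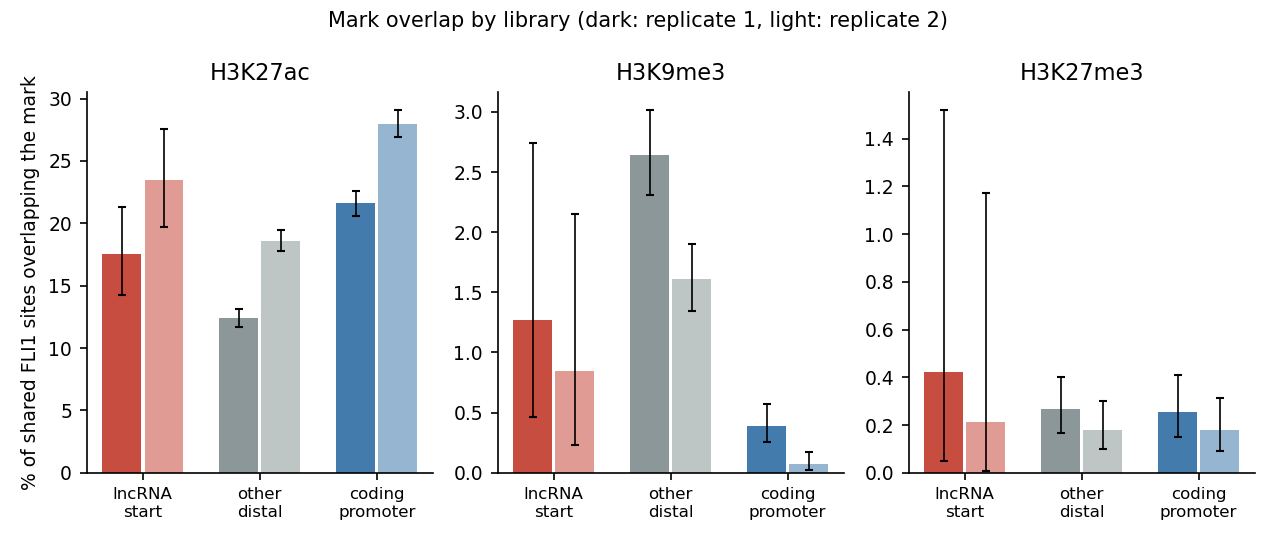
Percent of shared FLI1 sites that overlap H3K27ac, H3K9me3 or H3K27me3 by at least 1 bp, for lncRNA-start, other distal and protein-coding promoter sites, with a separate vertical axis for each mark. Bars are single mark libraries and error bars exact 95% binomial intervals. H3K27ac was at 17.5% and 23.5% of lncRNA-start sites, between the other 2 classes in both libraries, and the repressive marks were at 6 sites or fewer per library.

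H3K27ac was more frequent at lncRNA starts with FLI1 than at those without, in both H3K27ac libraries. Of the 534 eligible lncRNA starts with a shared FLI1 site, 20.6% had H3K27ac within 1 kb in replicate 1 and 28.7% in replicate 2. Of 11981 starts without a summit in any FLI1 list, 0.392% and 0.626% had it. Using the set B lists alone, without shared IgG controls, the shares were 17.9% and 24.8% at 794 starts with a site in both lists, and 0.916% and 1.34% at the remaining 12665. No test was run on these shares, and transcription of the genes was not measured.

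The repressive marks were rare at the sites. H3K9me3 overlapped 6 sites (1.27%) in replicate 1 and 4 (0.846%) in replicate 2. The background over all shared sites was 1.54% and 0.863%. The difference from other distal sites (2.65% and 1.61%) was -1.38 and -0.76 points, a mean of -1.07 ± 0.436 (n = 2, exact sign-flip permutation p = 0.5, adjusted 0.5). H3K27me3 overlapped 2 sites (0.423%) and 1 site (0.211%), with a background of 0.262% and 0.173%. Its difference of 0.0936 ± 0.0897 points rests on these few sites (n = 2, exact permutation p = 0.5, adjusted 0.5). FLI1 in set B and both repressive marks share IgG controls. From the set A lists alone, without shared controls, the differences were -1.66 points for H3K9me3 and 0.374 for H3K27me3. The H3K9me3 difference was -3.73 points with a mark within 1 kb of the region and -0.284 with the summit inside the mark. With starts within 2 kb the H3K27me3 difference was 0.506. Both turned sign under a single alternative, H3K9me3 to 0.0286 points with FLI1 regions overlapping each other by at least 50% and H3K27me3 to -0.239 points with starts within 500 bp. Altogether 333 of the 473 sites (70.4%) met none of the 6 mark lists.

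The sites were split by sequence into 13 with a GGAA repeat, 186 CpG-rich without one and 274 with neither. H3K27ac was at 19.4% and 21.0% of the CpG-rich sites (replicates 1 and 2), against 6.88% and 11.6% of 320 CpG-rich other distal sites. At sites with neither feature it was at 16.4% and 24.5%, against 12.1% and 18.1% of 7087 such distal sites. Of the 13 repeat sites, 2 (15.4%) and 5 (38.5%) overlapped it, against 16.9% and 25.1% of 871 repeat sites among the other distal sites. CCGGAA was at 32.3% of the CpG-rich sites and 10.6% of those with neither. H3K9me3 overlapped 3 (23.1%) and 2 (15.4%) of the 13 repeat sites, out of the 6 and 4 sites with this mark. Among other distal sites it was at 9.76% and 5.86% of those with a repeat, against 1.81% and 1.14% of those with neither feature. These overlaps are with the whole region. The 13 repeat sites had a median width of 2171 bp, against 747 bp for CpG-rich sites and 781.5 bp with neither feature. In each H3K9me3 library, 1 of the 473 summits lay inside the mark. The part of width in the H3K9me3 shares was not tested.

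FLI1 folds at the sites ranged widely. The median fold was 9.80 in set A replicate 1, with a range of 3.13 to 347, and 10.2 in set A replicate 2. The set B replicates had 12.1 and 10.3. As percentiles of each list, the medians were 71.4, 75.8, 74.3 and 68.2 in the same order. Other distal sites had 71.5, 77.8, 67.8 and 61.0. The median of lncRNA-start sites less that of other distal sites was therefore -0.18 and -1.96 in set A, against 6.45 and 7.22 for set B. Promoter sites had medians of 74.2, 75.8, 82.2 and 75.7.

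**Figure D3:**
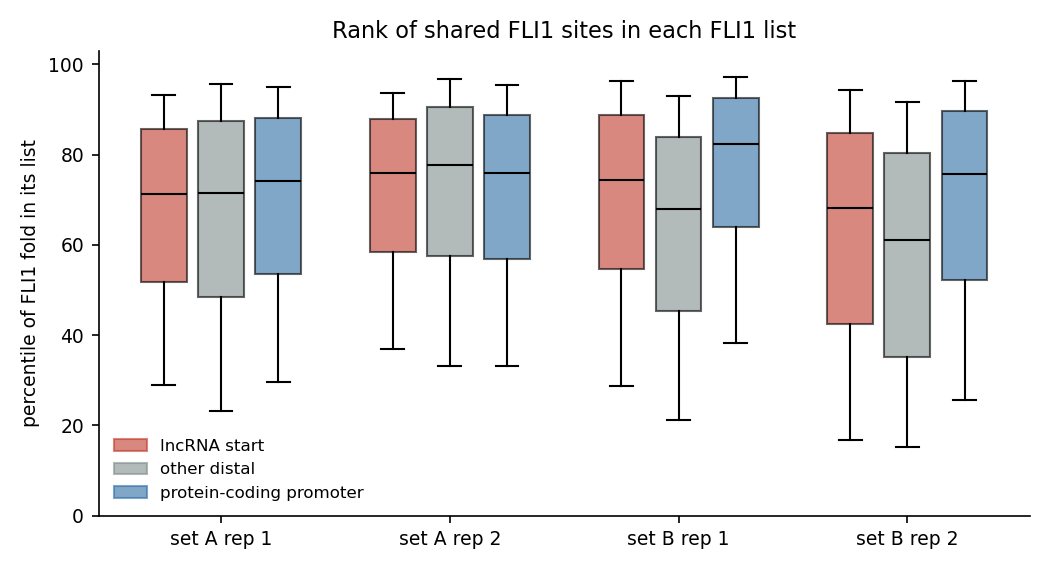
Percentile of FLI1 fold within each FLI1 list for the 3 classes of shared site. Boxes show the median and the 25th and 75th percentiles and whiskers the 10th and 90th percentiles. The lncRNA-start median lies close to the other distal median in set A (71.4 against 71.5 in replicate 1) and above it in set B (74.3 against 67.8 in replicate 1).

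The order of the sets differed with the sequence at the site, and with the class of site where neither feature was present. This is given as a description. Both set A percentiles lay above both set B percentiles at 128 of 473 sites (27.1%), and both set B percentiles above both set A ones at 106 (22.4%). Over all shared sites these shares were 31.9% and 22.5%, and the remaining 239 sites overlapped. Among the 13 repeat sites, 8 ranked higher in set A and 1 in set B. Among CpG-rich sites the numbers were 39 and 58 of 186, and among sites with neither feature 81 and 47 of 274. Repeat and CpG-rich sites among the distal sites had a like split (67.4% and 5.28%, then 20.9% and 33.4%). The sets also differ in what the labels do not state, and the part of that in these ranks was not tested.

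**Figure D4:**
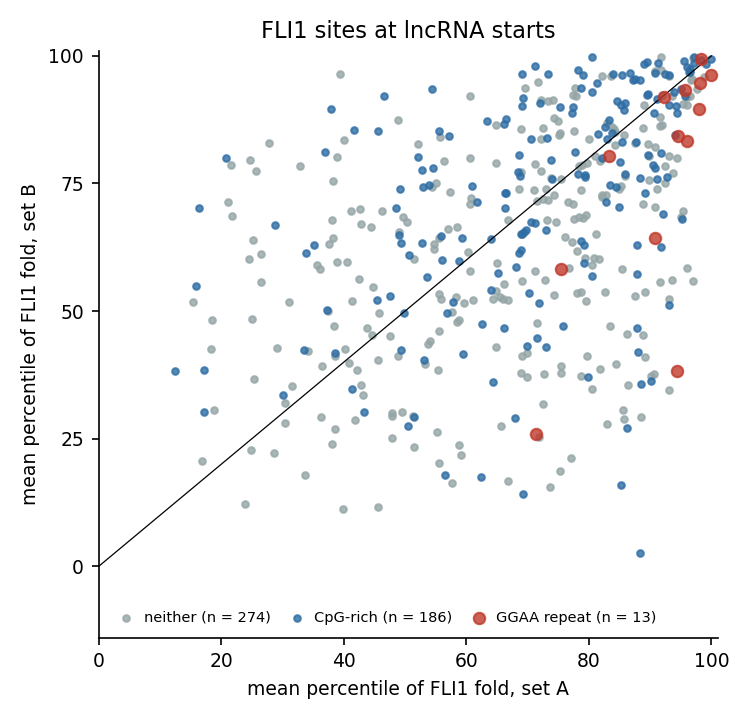
Each point is 1 of the 473 lncRNA-start sites, placed by its mean percentile of FLI1 fold in the 2 set A lists (horizontal) and the 2 set B lists (vertical). The line marks equal percentiles. Repeat sites (red) lie mostly below the line and CpG-rich sites (blue) lie on both sides.

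Single sites moved furthest between the sets at a small nucleolar RNA host gene. SNHG5 (chr6:85678969-85679776) had folds of 15.6 and 17.9 in set A against 4.22 and 3.94 in set B, or percentiles of 86.5 and 90.1 against 2.97 and 2.36. The groups do not overlap. LIPE-AS1, an antisense gene of the hormone-sensitive lipase locus, was among the 5 furthest in the other direction, with folds of 6.40 and 4.44 in set A against 17.1 and 12.7 in set B. It had H3K27ac in both libraries. These sites were picked as the extremes, so the differences are descriptions.

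Sites with higher FLI1 rank were wider, more often CpG-rich and held most of the repeats. Cut into 4 equal groups by mean percentile over the 4 lists, the sites were CpG-rich at 26.1% in the lowest group (119 sites), 39.0% in each middle group and 54.2% in the highest (118 sites each). Repeats numbered 1, 2, 2 and 8 from lowest to highest. H3K27ac in both libraries was at 6.72%, 10.2%, 16.9% and 16.1%. The median width was 517 bp in the lowest group and 1097 bp in the highest. The part of width in the H3K27ac shares was not tested. Sites with H3K27ac in both libraries had a median width of 1047 bp, against 703.5 bp where neither library had it.

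**Figure D5:**
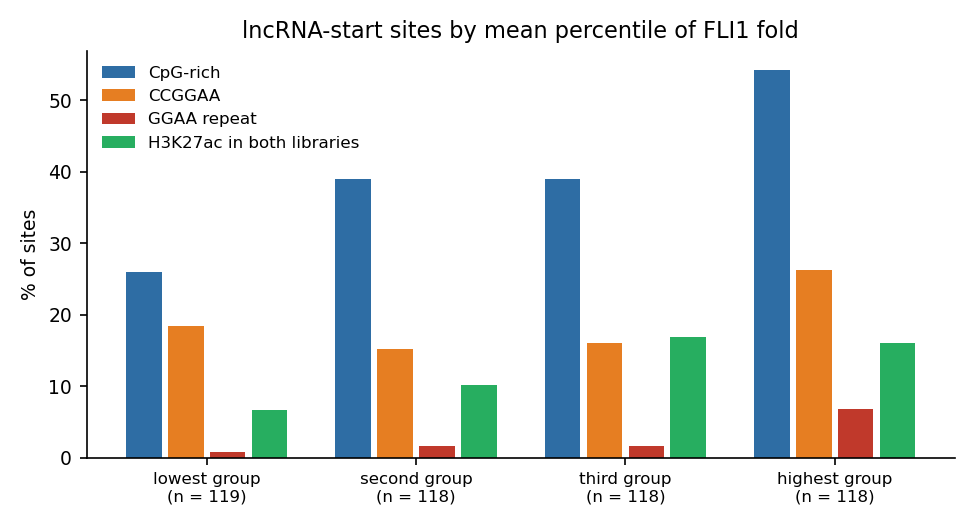
Percent of lncRNA-start sites in each of 4 equal groups by mean FLI1 percentile that are CpG-rich, hold CCGGAA in 300 bases, hold a GGAA repeat within 250 bp, or overlap H3K27ac in both libraries. CpG-rich sites make up 26.1% of the lowest and 54.2% of the highest group.

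Of the 473 summits, 104 lay inside a protein-coding gene. The lncRNA ran on the opposite strand of the host gene at 82 of these and on the same strand at 22. H3K27ac overlapped 15 (18.3%) and 25 (30.5%) of the opposite-strand sites in the 2 libraries, and 2 (9.09%) and 1 (4.55%) of the same-strand sites. The 369 sites outside protein-coding genes had 17.9% and 23.0%. With 22 same-strand sites, the shares rest on few sites.

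The highest mean percentile belonged to MIATNB, a lncRNA gene named as the neighbour of MIAT. Its region (chr22:26670715-26674695, summit in an exon 122 bp downstream of the start) had folds of 347 and 384.5 in set A against 43.0 and 70.1 in set B, and held the CCGGAA copies shown above. Set A replicate 1 had no region with a higher fold. H3K27ac was found there in replicate 2 only, with a fold of 5.18. LINC01627 (chr9:37382423-37384968), whose 15-unit run is shown above, had folds of 42.9, 71.4, 55.6 and 41.7 in the order of set A replicates and then set B replicates. Its sets overlapped, and H3K27ac was again in replicate 2 only (fold 5.22).

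MINCR, named as a MYC-induced lncRNA, had folds of 44.5 and 71.2 in set A against 68.7 and 35.7 in set B, in the order of replicates, and H3K27ac in replicate 1 only. ENSG00000283696 (chr1:161398907-161400409) had folds of 79.9, 76.6, 50.7 and 28.8 and H3K27ac in both libraries (folds of 6.19 and 4.27). MIRLET7A1HG, the host gene of a let-7 microRNA cluster, was covered by 2 sites that share 1 region in each set B list. The stronger (chr9:94166792-94167468, in an intron) had folds of 33.8 and 46.2 in set A against 120.3 and 51.8 in set B. The weaker, at chr9:94165907-94166244, had 11.6 and 12.5 in set A. Its 2 set B values were those of the shared regions, so they are not a second measurement. H3K27ac was found at neither site.

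LINC02732 (chr11:110351913-110359906) was the widest of these sites and met marks of both kinds. Its FLI1 folds were 204 and 244 in set A against 24.9 and 32.4 in set B, and it held a 13-unit run 202 bp from the summit. The percentiles of these folds were 99.96, 99.96, 94.4 and 98.0 in the same order. H3K27ac was present in both libraries (folds of 5.80 and 6.64), and so was H3K9me3 (4.01 and 4.58). The overlaps are with the whole region and need not share bases with each other. ENSG00000260580 (chr16:26719861-26724065) had folds of 60.1, 67.9, 30.2 and 23.4 and met no mark. The other 3 of the 10 highest were ENSG00000284657, ENSG00000288906 and ENSG00000288935, with folds between 28.8 and 57.1 in every list and no mark. Of the 10, 2 had H3K27ac in both libraries, 3 in 1 library and 5 in neither.

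Among the 59 sites with H3K27ac in both libraries, those of highest FLI1 rank after ENSG00000283696 and LINC02732 were mostly at genes without a symbol. Such genes held 36 of the 59 sites, and 287 of all 473 sites (60.7%). ENSG00000290993 (chr3:129399018-129400006) had FLI1 folds of 38.4, 32.8, 26.7 and 23.7 and H3K27ac folds of 6.03 and 5.18. ENSG00000258623 (chr14:68681832-68686376), inside RAD51B, a gene of homologous recombination, had FLI1 folds of 23.4, 48.9, 24.7 and 19.97, with a 9-unit run. Its H3K27ac folds were 5.95 and 5.18, and H3K9me3 met it in replicate 1 only. Of the 10 acetylated sites of highest FLI1 rank, ENSG00000291228 had the highest H3K27ac fold in replicate 1 (7.78, with 6.54 in replicate 2). LINC00115, at chr1:826758-827865, had FLI1 folds of 16.4, 8.90, 30.7 and 24.7 and H3K27ac folds of 4.61 and 3.34. Its summit bases occur 2 times in the genome. At the 83 and 111 acetylated sites the median H3K27ac fold was 5.34 and 5.31, against 5.04 and 5.08 at other distal sites.

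H3K9me3 in both libraries was found at 4 sites (0.846%), with a background of 0.72% of all shared sites. Of the 4, LINC02732 and ENSG00000226208 hold long GGAA runs. At ENSG00000226208 (chr1:70717958-70722595, 17 units) the FLI1 folds were 36.0 and 87.2 in set A against 13.6 and 57.8 in set B, and the H3K9me3 folds 5.78 and 5.77. The other 2 had no run: ENSG00000261729 had H3K9me3 folds of 7.59 and 7.31, and ENSG00000283108, at a CpG-rich start, 5.77 and 5.06. The protein-coding start nearest to the latter, of ZNF266, was 27989 bp away. H3K27me3 in both libraries met 1 site (background 0.143%), ENSG00000267568 (chr17:76968800-76969849), with folds of 4.48 and 4.64. Its FLI1 folds were 8.86 and 9.29 in set A against 21.9 and 23.5 in set B.

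Well-studied lncRNA genes were read from a list of 41. Of these, 28 had a start over 5 kb from protein-coding starts, 11 were closer, and 2 names (TUG1 and TINCR) matched no lncRNA gene of the annotation. A site was found at 4 of the 28 (14.3%), against 3.97% of all eligible starts. Most eligible starts belong to genes without a symbol (3.33%), which the list does not hold. The share was 9.88% for genes with another symbol, 8.70% for microRNA host, 4.95% for LINC and 4.21% for antisense genes. The list's share rests on 4 starts. NORAD, a cytoplasmic RNA that binds PUMILIO proteins, had FLI1 folds of 14.3, 10.3, 30.2 and 17.1 and H3K27ac in both libraries (5.34 and 4.62). MIR9-1HG, the host of a miR-9 gene, had folds of 15.8, 12.2, 13.8 and 10.5 and no mark. The site at MALAT1, a nuclear-speckle RNA, had low and even folds of 6.85, 6.32, 6.16 and 6.19 and no mark. Within 1 kb of the MALAT1 start there were 3 summits in set A replicate 1, 2 in set A replicate 2 and 1 in each set B list. Near NEAT1, the scaffold RNA of paraspeckles, the site (chr11:65420617-65423068) was nearest to the start of ENSG00000290057. It had folds of 15.7 and 18.00 in set A against 7.33 and 6.54 in set B, with H3K27ac in replicate 2 only.

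At 16 of the 28 starts no FLI1 list had a summit within 1 kb, among them MEG3 and H19, which are imprinted genes. The remaining 8 had summits in 1 or more lists but no site. EWSAT1, the Ewing sarcoma associated transcript, had 1 summit in set A replicate 1 and none in the other 3 lists. MIR17HG, the host of an oncogenic microRNA cluster, had 1 in each set B list and none in set A. MIAT had 1 in each list other than set A replicate 1. DANCR had 1 in each of the 4 lists, but its region in set A replicate 1 overlapped none in set B replicate 1.

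At the limits of the rule, values were as follows, without a test. Just inside 1 kb of a lncRNA start, ENSG00000284391 (1000 bp) had folds of 19.6, 15.2, 6.81 and 11.3, ENSG00000254288 (999 bp) had 4.90, 4.83, 8.32 and 5.00, and LINC01798 (995 bp) had 9.02, 11.1, 10.5 and 10.5. Just outside, at 1004 bp from ENSG00000290061, a shared region had 6.92, 8.18, 5.52 and 5.86 and H3K27ac in both libraries. Just over 5 kb from a protein-coding start (5011 bp from GPR84), the site at ENSG00000289854 had 9.02, 10.1, 9.95 and 6.14. Just under it, 4715 bp from ZFX, a region at ENSG00000289472 had 7.40, 4.83, 5.99 and 7.12.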

How the data were processed

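The deposited files were 10 peak lists, 1 per antibody library, each called on its own against the matching IgG control after removal of duplicates, per the names in the file headers. The submitters' processing notes name cutadapt 4.4, Bowtie2, Picard 2.17.11, MACS2 2.1.1 and GRCh38 (hg38). The lists hold the authors' fold ratio over IgG, −log10 p-value and −log10 q-value. From them, regions of a list were compared by overlap of at least 1 bp. Percentiles of fold were computed within each list. Starts came from GENCODE release 44, with transcripts of type protein-coding for the 5 kb limit.

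The difference in overlap with a mark was tested by an exact sign-flip permutation over its 2 libraries, with Benjamini-Hochberg adjustment over 4 differences. The members and gene lists were chosen with earlier results of these data known. Named sites were the list genes, the 10 of highest mean percentile, the 10 highest with H3K27ac in both libraries, up to 5 each with a repressive mark in both, the 5 longest repeats within 250 bp of the summit, and those nearest each distance limit, for which the nearest region outside is given. Tested on simulated data with 473 sites, the largest error in a difference of overlap was 0.0692 points in 60 simulations. The simulated marks were placed at the summits of chosen sites, so this checks the counting only. It gives no error for the differences in the real lists. Python 3.11.15, numpy 2.4.6, scipy 1.17.1, pandas 2.3.3 and pysam 0.24.0 were used. Alternatives covered distances, overlap rules, a −log10 q of at least 5, repeat length and leaving out libraries. Without read totals, precision could not be estimated from depth. Reads, spike-in and IgG libraries were not analysed here.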

Additional observations from a re-analysis of the deposited data

Results flagged for a closer look

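Dixon's gap-to-range criterion at 95%, which chance exceeds in about 1 of 20 groups, was applied to percentiles of fold. It set 1 FLI1 list apart from the other 3 at 5 of 35 named sites. Many named sites were picked for high percentiles, which crowd near 100, so a flag can rest on a small gap. At MIATNB the percentile was 98.8 in set B replicate 1, below the other lists. At ENSG00000283696 it was 97.3 and at ENSG00000235271 90.6, both in set B replicate 2 and both the lowest of the 4. At ENSG00000226208 it was 79.5 in set B replicate 1, against 96.7 to 99.8 in the others. At LINC01798 it was 78.6 in set A replicate 2, above the others. The 4 low values are all in set B. By fold, both set B libraries were below both set A ones at MIATNB (43.0 and 70.1 against 347 and 384.5). The same held at ENSG00000283696 (50.7 and 28.8 against 79.9 and 76.6), so fold does not set 1 library apart at these sites.

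The median percentile of lncRNA-start sites less that of other distal sites lay below 0 in both set A lists and above 0 in both set B lists. The set A mean less the set B mean was -7.90 points. This difference between the sets was not tested.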

How the results depend on the processing

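No paired analysis was possible because each mark forms 1 group, so that replicate numbers pair no groups; the site classes were already compared within each mark library. The H3K27ac differences kept their direction in 19 of 19 alternatives, at 3.66 to 9.73 points against other distal sites and -10.9 to -1.57 against promoter sites, the latter extremes with marks within 1 kb and with summits inside the mark. Leaving out 1 library at a time gave 4.44 to 6.18 and -5.19 to -3.51 points, -1.38 to -0.76 for H3K9me3, 0.0302 to 0.341 for H3K27me3, 495 to 551 sites and a repeat share of 2.18% to 2.63%. The H3K9me3 difference was -3.73 with a mark within 1 kb and -0.284 with summits inside the mark. It reversed to 0.0286 with 50% reciprocal overlap between FLI1 lists, and the H3K27me3 difference to -0.239 with starts within 500 bp. The number of sites was 196 with reciprocal overlap, 759 from set B lists only and 741 from set A lists only. The repeat share was 1.45% from set B lists only and 4.50% with starts within 2 kb. The causes were not tested, except that needing fewer lists admits more sites. The 19 alternatives include 4 settings added after the data were seen: all transcripts of protein-coding genes (435 sites), unique summit bases, no repeat, and not CpG-rich. They kept each direction. No p could fall under 0.5 with 2 libraries, and the lists give no depth.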
